A study of Mus musculus with 2 samples.

Results

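The genes described here are those of cholesterol and fatty acid synthesis under SREBP control, together with the sensors that govern them. They comprise 37 genes, chosen by name as mevalonate and sterol enzymes, regulators of SREBP, fatty acid enzymes, and LXR with its targets, and were followed among the 22907 genes that could be named on the arrays. The choice was made with results of these arrays known, so the ratios of the members are a description and were given no test. LKS+ cells, bone marrow cells of WT mice that lack lineage markers, carry Kit and Sca-1 and include stem and progenitor cells, were propagated in serum-free medium with SCF, IL-6 and IL-3 and then co-cultured for 24 h with 150 μg/ml EVs, the vesicles that the labels call exosomes. The control EVs came from the spleen (SP) of normal mice. The CML EVs came from the SP of mice with CML, a leukemia raised by transplanting LKS+ cells that carried a BCR-ABL retrovirus. According to the methods, the CML donors of these EVs were irradiated before harvest. The labels do not mention this, and the control donors are not described as irradiated. In the methods, CML was also raised in sublethally irradiated recipients that received normal bone marrow cells with the transduced cells. Leukemia, this preparation and the irradiation before harvest therefore cannot be told apart. The strain of the cultured cells is not given in the labels. There was 1 one-colour Agilent array per condition, with no replicate, and each value describes 2 cultures. Well above background were 54.4% of 59305 spots with control EVs and 53.3% with CML EVs, and none was saturated.

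Cholesterol is built from acetyl-CoA through mevalonate, isoprenoids, squalene and lanosterol. SREBPs are membrane-bound transcription factors that SCAP escorts from the endoplasmic reticulum when sterols are scarce and that INSIG proteins hold back when sterols are plentiful. The product of Srebf2 acts mainly on sterol genes and that of Srebf1 mainly on fatty acid genes. Because SREBPs are switched on by transport and cleavage, the mRNA of a regulator does not report its activity. LXRs are receptors for oxysterols, which accumulate when cholesterol is in excess, and induce genes of cholesterol export.

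The sterol enzymes lay higher with CML EVs by small amounts, the mRNAs of the SREBP regulators lay near 0, and no member reached 1.5-fold. Of the 37 members, 36 had a probe, all well above background on both arrays, and Acat2, the thiolase at the entry of the pathway, was not matched to a probe here. Every ratio divides the CML EV value by the control EV value, is given as log2, and was taken after both arrays had been brought to the same trimmed mean. Of the 36 measured members, 29 were higher and 7 lower with CML EVs, whereas 51.9% of all 13408 genes above background on both arrays were higher. Their median log2 ratio was 0.14 and that of all genes 0.01. At least 1.2-fold higher were 4 members (Mvd, Fdps, Hmgcs1 and Fasn) and at least 1.2-fold lower none. Over all genes, 6.96% were 1.2-fold higher and 7.53% lower. The 4 in 36 members are thus a share near that background. At 1.1-fold 18 members were higher and none lower, against 17.3% and 17.2% of all genes, and at 1.5-fold none was either, against 1.52% and 1.18%. Bright probes scatter less, and the mean log2 signal of 30 members reached 10. Among the 5705 genes that bright, 3.54% were 1.2-fold higher and 0.876% lower, and 4 of the 30 bright members were higher at this fold and none lower. With each array scaled to its median, which raises every ratio alike, 10 members were 1.2-fold higher and none lower, against 11% and 4.94% of all genes. Quantile normalization gave 4 members higher and none lower, against 7.67% and 6.14%, and normexp background correction 5 and none, against 3.73% and 2.5%. Counted from the median of all genes, 4 members were 1.2-fold higher, against 6.77%.

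With no replicate, an error was at hand only for the spots. It was first taken between spots of probes placed 10 times on each array. Its median SD of a log2 ratio was 0.05 for 263 probes whose log2 signal reached 8, and 0.26 for 10 dimmer ones. No member lay on such a probe. This SD covers neither cultures nor EV preparations. Beyond 2 such SDs lay 17 members, all higher, and within them 19. Of all genes 15.5% were higher and 11% lower by this measure. The scanner software's own error is larger, 10 to 12.8% of a member's signal on each array, which gives a log2 ratio an SD of at least 0.20. Apart from the dim Abca1 it was 10.0 to 10.1% for every member, so it acts nearly as a fixed cut. Beyond 2 SDs by this error lay 1 member, Mvd, at 0.409 against 0.408, and the other 35 lay within, while 2.54% of all genes were higher and 1.77% lower. In the following, spot SDs are those between repeated spots. In a bulk sample, a change in the RNA per cell and a change in which cells were present cannot be told apart.

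**Figure D1:**
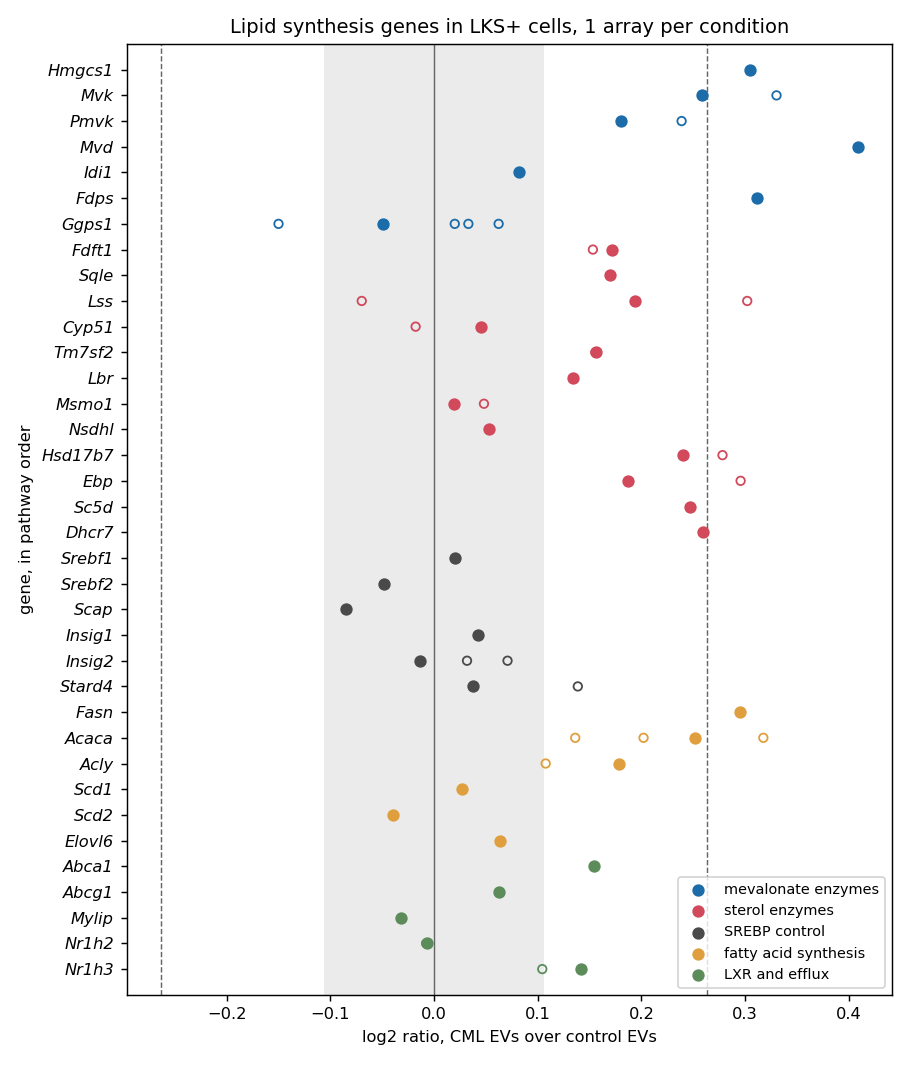
CML EV to control EV ratio (log2, horizontal axis) for the 36 measured members in pathway order. Filled points are the probe used for a gene, open points its other probes above background, the grey band is 2 SDs between repeated bright spots, and dashed lines mark 1.2-fold; the mevalonate and sterol enzymes lie mostly to the right and the SREBP control genes around 0.

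The mevalonate enzymes had the highest median of the role groups, a log2 ratio of 0.26 for 7 measured genes, 6 of them higher and 3 at least 1.2-fold. Hmgcs1, the synthase that makes HMG-CoA, had scaled signals of 23601 (control EVs) and 29148 (CML EVs), which is 1.24-fold; signals are given in this order throughout. Mevalonate kinase (Mvk) had signals of 8665 and 10361, a log2 ratio of 0.26 and just under 1.2-fold, and its weaker probe gave 0.33. Phosphomevalonate kinase (Pmvk), the next enzyme, had 15203 and 17224, or 1.13-fold, and 0.24 by its other probe. Mvd, the decarboxylase that yields isopentenyl diphosphate, showed the largest ratio of all members, with signals of 3256 and 4322 or 1.33-fold. Only 1 probe stands for Mvd, and 96.7% of all genes ranked at or below it. The isomerase Idi1 lay within 2 spot SDs at 11022 and 11665. Fdps, which makes farnesyl diphosphate, had signals of 34801 and 43187, or 1.24-fold. Ggps1 lengthens farnesyl diphosphate to geranylgeranyl diphosphate and so leads away from sterols to protein prenylation. It was the only mevalonate enzyme that was not higher, with signals of 653 and 631, and its 5 probes gave log2 ratios from -0.15 to 0.06. The listed enzymes from Hmgcs1 to Fdps, which are not every step, thus lay above 0, though Idi1 was within 2 spot SDs. The branch enzyme Ggps1 lay near 0, and median scaling gave it a log2 ratio of 0.02.

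All 12 sterol enzymes had a log2 ratio above 0, the lowest 0.02 and the highest 0.26, with a median of 0.17 or 1.13-fold and none past 1.2-fold. Squalene synthase (Fdft1), which commits farnesyl diphosphate to sterols, had signals of 8793 and 9901, or 1.13-fold. Squalene epoxidase (Sqle) followed with 12161 and 13682, also 1.13-fold. Lanosterol synthase (Lss) had 5033 and 5759, or 1.14-fold, but its probes disagreed, with log2 ratios of 0.30, 0.19 and -0.07. By the probe used for each gene, these first 3 enzymes after the branch differed between the arrays by nearly the same ratio. The demethylase Cyp51, which acts on lanosterol, had signals of 4127 and 4257, and its weaker probe gave -0.02. The sterol reductases Tm7sf2 and Lbr, which can serve the same step, had 5881 and 6554 or 1.11-fold and 20484 and 22482 or a log2 ratio of 0.13. Both probes of Tm7sf2 gave a log2 ratio of 0.16. Msmo1, Nsdhl and Hsd17b7 together remove methyl groups from the sterol ring. Msmo1 had 19214 and 19470, and with quantile normalization a log2 ratio of -0.02. Nsdhl had 1511 and 1568. Hsd17b7, the ketoreductase, had signals of 2246 and 2653, or 1.18-fold, and 0.28 by its other probe. The isomerase Ebp had 13725 and 15624, or 1.14-fold, and 0.30 by its other probe. The desaturase Sc5d had 2175 and 2581, or 1.19-fold, and Dhcr7, which reduces 7-dehydrocholesterol in the last step, had 1260 and 1509, a log2 ratio of 0.26 and just under 1.2-fold. Of the 12 enzymes, Cyp51, Msmo1 and Nsdhl were thus nearly level between the arrays and within 2 spot SDs. The lowest ratio under 9 alternatives was 0.22 for Hsd17b7, 0.22 for Sc5d and 0.23 for Dhcr7.

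The genes that control SREBP differed little between the arrays. Their log2 ratios ran from -0.08 to 0.04, with 3 of 6 above and 3 below 0 and a median of 0.0029. Srebf1 had signals of 9352 and 9481 by a single probe. Srebf2, for the factor of sterol genes and itself an SREBP target, had 1086 and 1050. The escort Scap had 4414 and 4162, the lowest ratio of all members at -0.08. Insig1, for the retention protein that SREBP induces, had 446 and 459, and Insig2 had 551 and 545, with 0.03 and 0.07 by its other probes. Stard4, a sterol carrier protein gene induced by SREBP, had 3365 and 3453, and 0.14 by its other probe. All 6 lay within 2 spot SDs, the SREBP targets Insig1, Stard4 and Srebf2 among them. Under at least 1 other setting the sign of Srebf1, Srebf2 and Insig2 turned.

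Of the 6 fatty acid genes 5 were higher, 1 of them at least 1.2-fold, with a median log2 ratio of 0.12. The 3 early enzymes had the higher ratios. Acly, which supplies cytosolic acetyl-CoA from citrate, had signals of 19940 and 22561, or 1.13-fold. Acetyl-CoA carboxylase (Acaca), which makes malonyl-CoA, had 5248 and 6249, or 1.19-fold, and all 4 of its probes were higher, between 0.14 and 0.32 in log2 ratio. Fatty acid synthase (Fasn), which builds palmitate, had 36262 and 44481, or 1.23-fold. These 3 enzymes make the saturated chain. The enzymes that modify it lay within 2 spot SDs. Elongase Elovl6 had 2812 and 2940, the desaturase Scd1 had 2462 and 2509, and Scd2 had 37808 and 36776. With normexp background correction Scd1 had a log2 ratio of -0.04, and with median scaling Scd2 had 0.03.

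For LXR genes and their targets, 3 of 5 were above 0, none reached 1.2-fold and the median was 0.06 (log2). Nr1h2, for the widely expressed LXR, had signals of 5492 and 5465. Nr1h3, for the other LXR, was dim at 181 and 200, and with normexp its log2 ratio was 0.03. The exporter gene Abca1 was near background at 33.6 and 37.4, and a second probe was below it. The exporter Abcg1 had 1486 and 1552, and Mylip, a ubiquitin ligase gene that LXR induces, had 258 and 252. The ratio farthest from 0 among the LXR targets was thus that of the dimmest gene, Abca1, at 1.11-fold, within the scatter of dim spots.

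**Figure D2:**
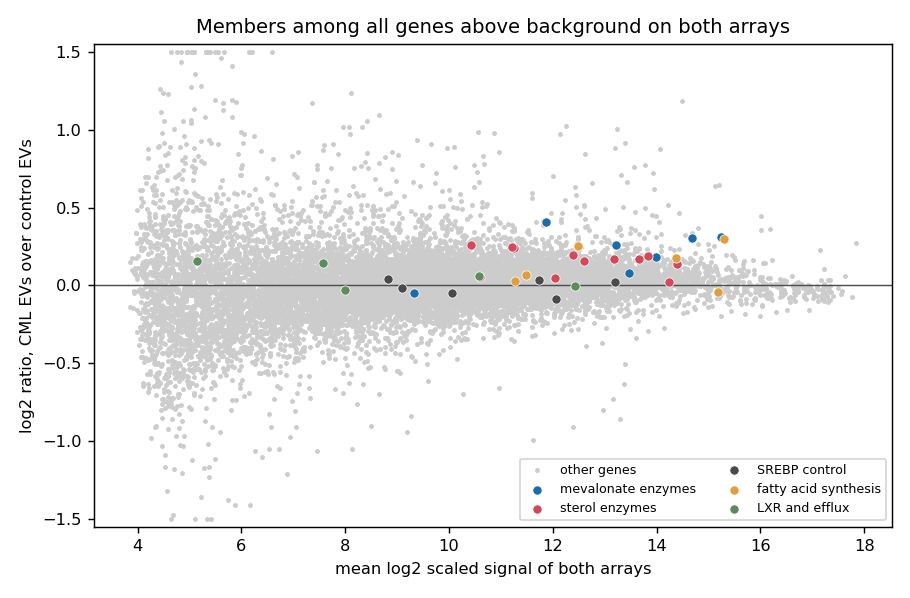
CML EV to control EV ratio (log2, vertical axis) against the mean log2 scaled signal of both arrays; each point is 1 gene, members are coloured by role, and genes beyond 1.5 are drawn at the edge. The grey cloud narrows with signal, and most mevalonate and sterol enzymes lie along its upper side, mostly at log2 signals of 10 or more. Msmo1, Cyp51, Nsdhl, Idi1 and Ggps1 lie within the middle of the cloud.

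The members' promoters were searched for short motifs. The members were chosen as genes under SREBP control, and the motifs with earlier results known. The shares below are therefore a description and not independent support. RefSeq windows were held for 30 of the 37 members, and the 250 bases upstream of each annotated start were searched on both strands. Fdps, Fdft1, Sqle, Stard4, Scd1, Scd2 and Abcg1 had no window and were not searched. SREBP binds the sterol regulatory element, SRE, searched as TCACNCCAC, and often acts beside NF-Y, which binds the CCAAT box (CCAAT). Of 17 mevalonate and sterol enzymes with a window, 16 held a CCAAT box, and 11 held at least 2 in a single window. Of all 17491 protein-coding genes with a window, 39.5% held at least 1 and 13.0% at least 2. Among the 13 other members 6 held it. The exception among the enzymes was Acat2. The full SRE was found in Hmgcs1 alone of the members, against 1.22% of all 27025 genes with a window. Without its last base (TCACNCCA, which includes the full SRE) it was also in Msmo1 and Srebf2, against 4.03% of protein-coding genes. The GC box GGGCGG, which SP1 binds, was in 15 of the 17 enzyme genes and in 45.8% of protein-coding genes; the E-box CACGTG was in 3 and in 7.61%. A match is a run of letters and not a measured site. The 4 windows below show the member with the full SRE (Hmgcs1), the member with the largest ratio (Mvd), and the genes with a shortened SRE whose ratios lay near 0 (Msmo1 and Srebf2). They are 5′ to 3′ on the gene's strand in build GRCm38.p6, at chr13:119690101-119690350 on the plus strand, chr8:122443423-122443672 on the minus strand, chr8:64733579-64733828 on the minus strand and chr15:82147019-82147268 on the plus strand. Capitals mark the SRE, full or shortened, and CCAAT or its complement ATTGG.
Hmgcs1: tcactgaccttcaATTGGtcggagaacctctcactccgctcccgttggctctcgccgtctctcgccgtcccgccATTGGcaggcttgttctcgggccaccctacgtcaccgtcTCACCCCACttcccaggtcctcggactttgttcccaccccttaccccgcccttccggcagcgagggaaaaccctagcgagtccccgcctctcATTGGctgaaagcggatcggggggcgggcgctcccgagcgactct
Mvd: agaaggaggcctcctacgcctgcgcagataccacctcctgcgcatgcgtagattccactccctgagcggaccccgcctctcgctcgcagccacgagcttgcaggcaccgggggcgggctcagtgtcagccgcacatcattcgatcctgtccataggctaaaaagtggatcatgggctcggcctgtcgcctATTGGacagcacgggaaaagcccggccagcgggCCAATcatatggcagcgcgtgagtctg
Msmo1: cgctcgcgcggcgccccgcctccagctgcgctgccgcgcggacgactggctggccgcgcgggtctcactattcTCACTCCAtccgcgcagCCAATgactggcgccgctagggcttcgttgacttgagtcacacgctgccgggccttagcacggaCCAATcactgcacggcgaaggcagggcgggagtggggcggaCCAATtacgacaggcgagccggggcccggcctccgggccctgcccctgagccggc
Srebf2: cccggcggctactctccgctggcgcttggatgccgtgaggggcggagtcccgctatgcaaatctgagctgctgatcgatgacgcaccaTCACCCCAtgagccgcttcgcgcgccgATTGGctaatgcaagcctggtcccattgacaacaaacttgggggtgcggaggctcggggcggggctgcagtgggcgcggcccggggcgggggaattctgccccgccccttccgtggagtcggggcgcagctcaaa
Counted from the start of the gene, with -1 the base before it, the SRE of Hmgcs1 lay at -137 to -129 and its CCAAT boxes began at -237, -176 and -45. In Mvd CCAAT boxes began at -60 and -27 and no SRE was matched. Msmo1 held 3 CCAAT boxes and a shortened SRE at -177 to -170, and Srebf2 1 CCAAT box and a shortened SRE at -162 to -155. These windows were picked by motif or ratio, and a link between motif and ratio was not tested.

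**Figure D3:**
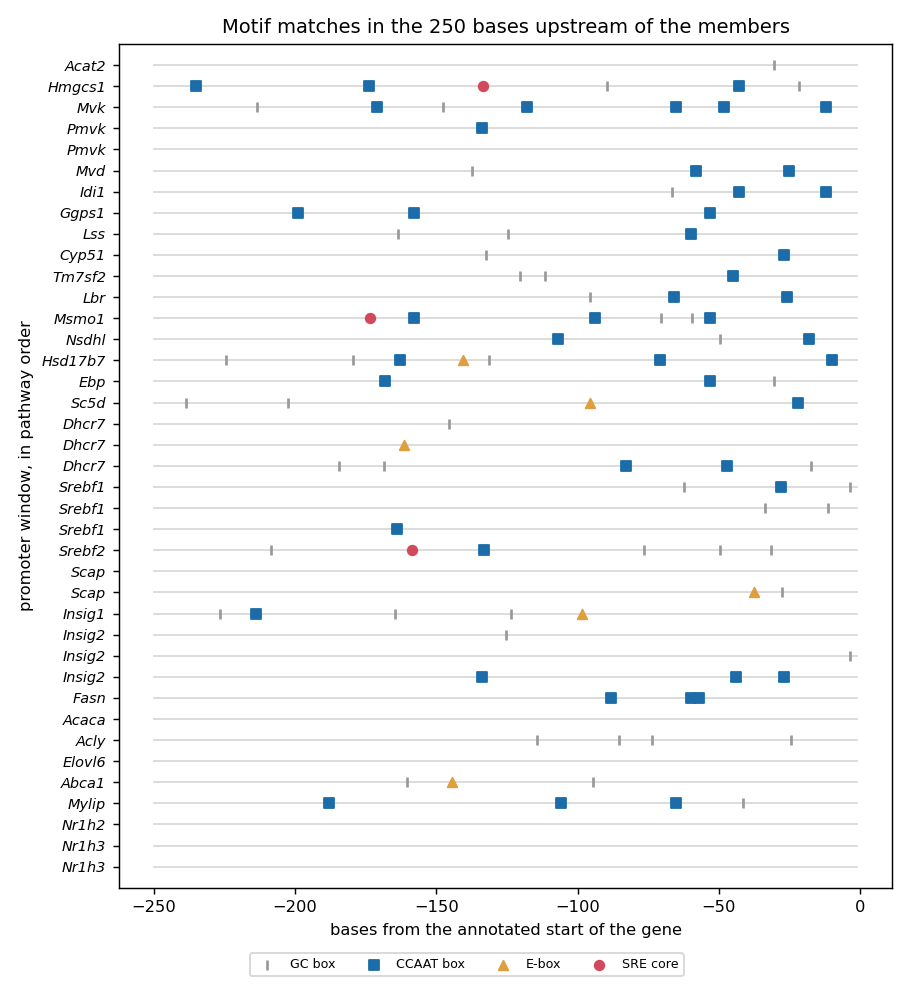
Motif matches by their distance in bases from the annotated start (horizontal axis) in the 250 bases upstream of each member's start, 1 line per RefSeq window. CCAAT boxes are blue squares, the SRE without its last base red circles, E-boxes orange triangles and GC boxes grey bars; 16 of 17 mevalonate and sterol enzymes carry a blue square, and SRE letters are in 3 genes.

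Further genes of lipid metabolism, from lists written with earlier results known, were read beside the members. Over all genes, 6.96% were 1.2-fold higher and 7.53% lower, and the counts in these lists stand beside those shares. Among 18 measured other SREBP targets the median was 0.10 (log2), with 15 above 0, 2 at least 1.2-fold higher and none lower. Thrsp, for a protein that promotes fatty acid synthesis, was dim at signals of 23.1 and 69.5, or 3.01-fold. The tubulin gene Tubb2b had 226 and 274, or 1.21-fold, within 2 spot SDs for log2 signals under 8. Malic enzyme (Me1) was nearest to 0 at -0.01. Genes that process or degrade SREBP and its partners had a median of 0.06 over 13, with Rnf145, a ubiquitin ligase gene, at 426 and 529 or 1.24-fold. The probes of Rnf145 ran from -0.23 to 0.71, so its direction is uncertain.

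The list of cholesterol ester, lipid droplet and glycerolipid genes holds enzymes that build triglyceride and cholesterol esters and also lipases that break them down. It included 3 genes with a larger ratio than any member (Dgat2, Mgll and Plin3). Of 14 measured, 11 were higher, with a median of 0.16. At least 1.2-fold higher were 5 and lower 1, against 6.96% and 7.53% of all genes. Dgat2, which completes triglyceride synthesis, had signals of 1156 and 1914, or 1.65-fold. Dgat1, for the other enzyme of this step, had 456 and 593, a log2 ratio of 0.38. Plin3, for a lipid droplet coat protein, had 5224 and 7470, or 1.43-fold. Monoglyceride lipase (Mgll) had 133 and 212, or 1.59-fold, with both probes higher. Agpat2, an acyltransferase of phosphatidate synthesis, had 7836 and 9520, or 1.21-fold, and 0.19 by its weaker probe. Lipe, hormone-sensitive lipase, went the other way at 57.4 and 44.4, or 1.29-fold lower, close to background. Lpin2, a phosphatidate phosphatase gene, lay nearest to 0 at 0.04.

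For fatty acid oxidation the median of 20 measured genes was 0.01 (log2), with none 1.2-fold higher and 1 lower. This was Acot2, for a mitochondrial thioesterase, at 290 and 219 or 1.32-fold lower. Its mean log2 signal was just under 8, and it lay within 2 spot SDs of such dim probes. The oxidation enzyme gene Hadh had 0.01. Genes of prenylation, dolichol and ubiquinone, which use the isoprenoids of the mevalonate pathway, had a median of -0.01 over 14 and none past 1.2-fold either way. Pdss2, which makes the ubiquinone side chain, lay nearest to 0 at -0.0015. Other LXR and RXR genes had a median of -0.01 over 10, with the phospholipid transfer protein gene Pltp at 18.2 and 15.1, just past 1.2-fold lower and near background, and the receptor gene Rxra at -0.0023. The mevalonate, sterol and fatty acid synthesis groups thus had higher medians than the lists of oxidation and isoprenoid use, a difference that was not tested. The cholesterol ester, lipid droplet and glycerolipid list, at 0.16, also had a higher median than fatty acid synthesis, at 0.12. Reference genes had a median of 0.0061 over 12, with Gapdh at -0.0016. Cell cycle genes had 0.03 over 16, with Pcna at -0.01. Ccnd1, for cyclin D1, was dim at 96.0 and 71.8 or 1.34-fold lower, within 2 spot SDs of dim probes.

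**Figure D4:**
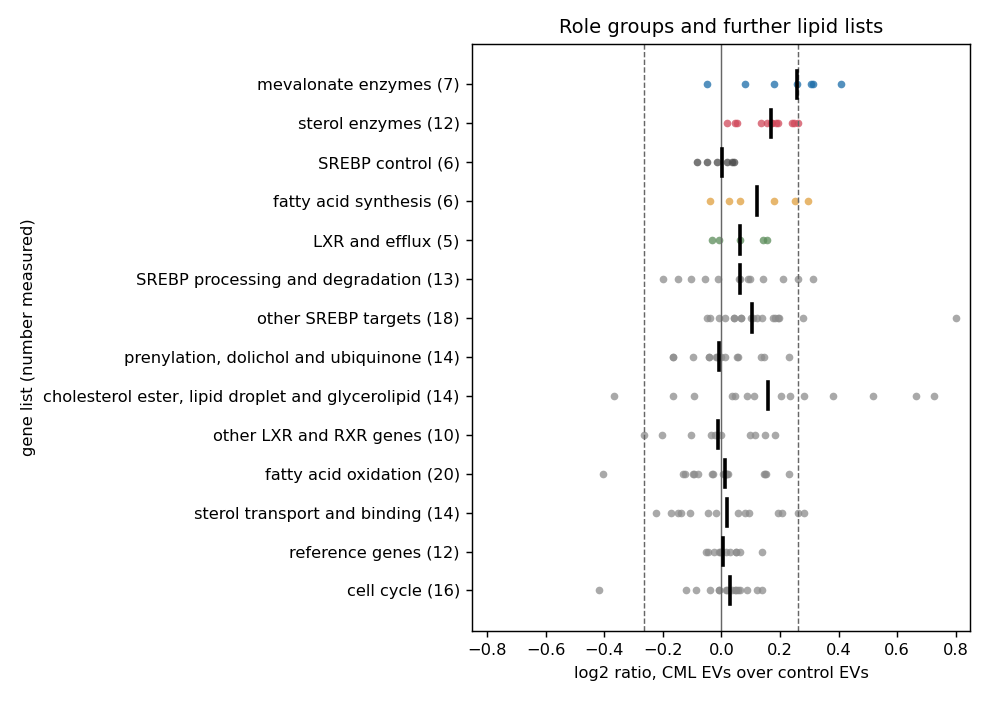
CML EV to control EV ratio (log2, horizontal axis) for the measured genes of the 5 role groups (coloured) and 9 further lists (grey), with the number measured in parentheses; black bars are medians, dashed lines mark 1.2-fold, and Thrsp, at 1.59, is drawn at the right edge. The mevalonate enzymes have the highest median at 0.26, and 5 genes of the cholesterol ester, lipid droplet and glycerolipid list lie to the right of the upper dashed line.

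Markers of several cell types differed between the arrays too, some by larger ratios than any member. All 6 primary granule markers were at least 1.2-fold higher with CML EVs, against 6.96% of all genes, with a median of 0.72 in log2. The brightest were Mpo at 213990 and 258638 and Ctsg at 65450 and 84128, and the list's summed signal went from 314500 to 410316. Late neutrophil markers had a median of 0.44 over 9 measured, with 7 higher, 5 of them at least 1.2-fold, and 2 lower (Mmp8 and Cxcr2). The brightest of the list were S100a9 at 134970 and 158211, which is 1.17-fold, and S100a8 at 56320 and 76572. The summed signal of the list was 232527 and 302263, and Mmp9 was below background on both arrays. Among 11 measured LKS+ markers 10 were lower and the median was -0.10, with a summed signal of 48865 and 44816. The sorting markers were both above background, Kit at 1646 and 1529 and the Sca-1 gene Ly6a at 1548 and 1985. Cd34 had 24845 and 21997 and Myb 9533 and 9110, and Mecom was below background on both arrays. All 5 megakaryocyte markers were lower, with a median of -0.34, among them Pf4 at 55955 and 52699 and Gp9 at 2650 and 2088. Mast cell and basophil markers had a median of 0.09 over 6, led by Mcpt8 at 26399 and 27860 and Cpa3 at 5996 and 6467. Monocyte and macrophage markers had a median of 0.08 over 10, the brightest being Csf1r at 10425 and 10782 and Cd68 at 6102 and 6564, whereas C1qa was below background on both. The 2 of this list past 1.2-fold were dim, Vcam1 at 110 and 247, or 2.25-fold, and Spic at 61.8 and 88.9, or 1.44-fold. Erythroid markers had 0.23 over 5, 3 higher and 2 lower, with Alas2 below background on both arrays. Hba-a1 had 980 and 1149 and Epor 673 and 646, whereas the globin gene Hbb-bt, the only one past 1.2-fold, was 1.62-fold lower at 510 and 314. Of 5 markers each, 1 B cell, 3 T and NK cell and 2 stroma markers were above background on both arrays. Cd79b had 734 and 751, Nkg7 4427 and 6850, Cd3d 141 and 176, Col1a2 254 and 252 and Pecam1 219 and 216, whereas Ms4a1, Cd3g, Col1a1, Col3a1 and Cdh5 were below background on both. Hbb-bt, Vcam1 and Spic were named after their values were seen. The part of these shifts in the ratios of the members was not tested.

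**Figure D5:**
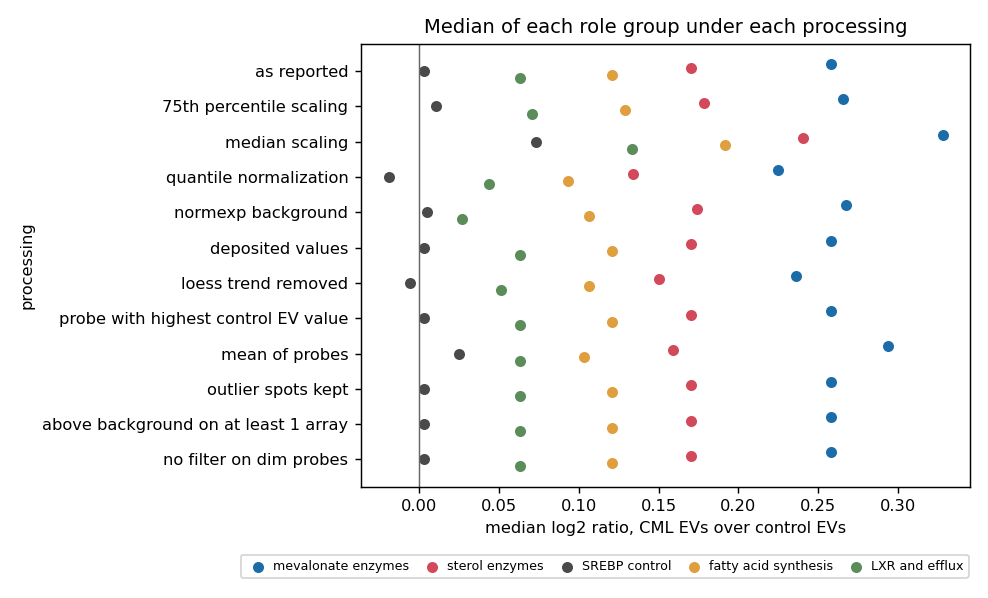
Median CML EV to control EV ratio (log2, horizontal axis) of each role group under the reported processing and 11 alternatives. The order of the 5 groups is the same in each line, from mevalonate enzymes at the right to SREBP control around 0, while median scaling moves all of them to the right.

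The order of the role medians, from mevalonate enzymes over sterol enzymes, fatty acid synthesis and LXR genes to SREBP control, was the same under all 11 alternatives to the scaling, background correction, probe and filter. These alternatives use the same 2 cultures and do not stand in for replicates.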

How the data were processed

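Expression was measured on 2 one-colour Agilent SurePrint mouse arrays, 1 per condition. The authors' scanner files hold the background-subtracted intensity of each spot, made with Agilent Feature Extraction 12.0.3.1 according to the submitters' processing notes; the authors' deposited value table holds that intensity times 1 factor per array (0.942 and 0.947), on a linear scale. Without control spots, both arrays were brought to a mean of 2500 that disregards the upper and lower 2%. Outlier spots (95 and 88) were then left out, and spots of a probe were averaged as log2. RefSeq accessions, through the gene table of GRCm38.p6, named 32989 of 56604 probes; the array files refer to mm9. As in the methods, a gene was read from its probe of highest value on the CML EV array. Probe intensity does not measure the amount of one mRNA against another; it was used between genes only to order and sum probes by brightness.

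The members, lists, folds and motifs were chosen with earlier results of these data known. All members were named. Of each further list, genes past 1.2-fold (at most 6) and the gene nearest to 0 were named, and of marker lists the 2 brightest; some genes of these lists are not reported here. The pathway list does not hold every enzyme. With 1 array per group no test was made. Gene tables and counts were tested on simulated data. Alternatives covered scaling, quantile normalization, normexp (limma 3.58.1, R 4.3.3; median spot signal, offset 50), a loess fit (statsmodels 0.14.6, span 0.3), probes, outliers, filters and folds. Python 3.11.15, numpy 2.4.6 and pandas 2.3.3 were used. The number of arrays limits the precision.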

Additional observations from a re-analysis of the deposited data

How the results depend on the processing

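No paired analysis was possible because there is 1 array of each condition. With median scaling the median log2 ratio of the members (0.14) was 0.21. The medians of mevalonate enzymes (0.26), sterol enzymes (0.17), SREBP control (0.0029), fatty acid synthesis (0.12) and LXR genes (0.06) were 0.33, 0.24, 0.073, 0.19 and 0.13. Then 10 members in place of 4 were 1.2-fold higher, against 11% of all genes in place of 6.96%. At 1.1-fold 18 members were higher, against 17.3% of all genes, and at 1.5-fold 0, against 1.52%. Beyond 2 SDs between repeated spots, a measure added after seeing the data, 17 were higher, against 15.5%. Beyond 2 SDs by the scanner software's error, also added, 1 was higher, against 2.54%. The other medians of members and role groups moved by less than the spot SD of 0.05 under each of the other 10 alternatives, and no member was 1.2-fold lower under any. The median of SREBP control was below 0 with quantile normalization (-0.019) and with the loess fit (-0.0057). Of 324 member values under alternatives 280 moved by less than 0.05 and 44 by more, and 27 members kept their sign throughout, 26 of them higher and 1 lower; the 9 others lay near 0. Over all genes, 933 were 1.2-fold higher and 1009 lower; these were 1475 and 662 with median scaling (69.0% of calls higher, in place of 48.0%), 500 and 335 with normexp (59.9%), and 2564 and 2864 without a filter on dim probes. At 1.1-fold they were 2318 and 2310, and at 1.5-fold 204 and 158. Median scaling shifts every gene alike and normexp adds an offset to each signal; the cause of other shifts was not tested. Of 333 results for the further lists 281 kept a median within 0.05 or a count within 1.5 times, and 52 moved by more. Abca1, Nr1h3 and Mylip had log2 signals under 8, where the spot SD was 0.26.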

Other observations

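Sterol transport and binding genes had a median log2 ratio of 0.02 over 14 measured genes, 7 higher and 7 lower. Scp2, for sterol carrier protein, had scaled signals of 7666 (control EVs) and 9323 (CML EVs), or 1.22-fold, the only one of the list past 1.2-fold. The oxysterol-binding protein gene Osbp lay nearest to 0 at -0.02, although another of its probes gave 0.29. Npc2, for a lysosomal cholesterol carrier, had 8857 and 10222, or 1.15-fold, and was named after its values were seen. Ch25h, which makes an oxysterol and is induced by interferon, was near background at 23.4 and 20.0.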
